A study of Mus musculus with 12 samples.

Results

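The comparison concerns the bulge stem cells of mice labelled Eed iKO and of their controls, in 3 libraries of each group, which are 6 of the 12 libraries of the study. The members were all protein-coding genes in the table of these 6 libraries, 17885 genes, of which 15008 passed a filter on low values and were tested. Hair follicle stem cells (HFSCs) were sorted from the back skin of C57BL/6J mice at postnatal day 70 by their surface proteins (EpCAM+, CD34+, high α6-integrin and Sca1-), and their total RNA was sequenced. Eed iKO mice carried K15-CrePGR and Eed fl/fl, so that a Cre recombinase driven by the Krt15 promoter could be switched on in the bulge by RU-486, and their labels give the genotype Eed -/-. The labels give the controls as wildtype. According to the methods, RU-486 at 10 mg/ml was applied to the skin in 100 µl per day for 7 days from postnatal day 50, and control mice received ethanol alone. Genotype and RU-486 therefore cannot be told apart in this comparison. Each group is described as 3 biological replicates from more than 1 litter, and both sexes were used in the study. The libraries are called control 1, 2 and 3 and Eed iKO 1, 2 and 3 after their labels. Among genes with a mean of at least 500, Eed iKO 3 lay furthest from its group, as described after the gene lists. Control 1 and control 3 lay nearly as far from theirs. Over all tested genes, every control lay further from its group than Eed iKO 3 did. A count of more than 1 gene called in a list is followed by its value without any library that moves it by more than 1.5 times.

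PRC2 is the Polycomb complex that places methyl groups on lysine 27 of histone H3, a mark found at silent genes. EED is its subunit that binds the mark and holds the catalytic subunits EZH2 or EZH1 active, together with SUZ12. Bulge stem cells rest through the telogen phase of the hair cycle and make new follicles in anagen, and their identity rests on factors such as SOX9, LHX2, NFATC1 and TCF7L1. Between 33269583 and 57063586 reads per library were counted on genes, and all values below are normalized counts, which are reads scaled by a size factor per library. The test was that of limma, on log2(normalized count + 1). A gene is said to be called higher or lower where its unadjusted p was under 0.05, and adjusted p-values are those of Benjamini and Hochberg over all 15008 genes. Up to 3 members of each list are shown for their fold, picked among called genes without overlap of the groups. Their lack of overlap thus follows from that choice.

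The targeted gene was read first, as a check of the labels. Eed normalized counts were 1084, 1249 and 950.2 in control 1, 2 and 3, and 933, 1361 and 1001 in Eed iKO 1, 2 and 3. The groups overlapped, with both the lowest and the highest value in the Eed iKO group (log2 fold change -0.01, standard error 0.22, adjusted p = 0.993). The label Eed iKO thus did not go with less Eed mRNA, and every direction given here is that of the labels. The value sums all reads of the gene, so it does not show whether the deleted exons were read, and measures of the deletion outside these libraries were not analysed here. Of its partners, Ezh1 had the largest mean among the 14 PRC2 subunits tested, and its values were 5060.5, 6623 and 5917 in the control libraries against 5113, 4675 and 5290.2 in the libraries labelled Eed iKO, with overlapping groups (log2 fold change -0.22). Ezh2 and Suz12 had log2 fold changes of -0.09 and 0.10. No PRC2 subunit was called, by limma, in either direction. With a library left out, the number called higher was 1 without control 3 or Eed iKO 1, and that called lower 1 without control 2 or control 3.

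PRC1, the complex that reads the mark and adds ubiquitin to histone H2A, had 2 of 20 subunits called higher and 2 called lower. Over all genes tested, 8.38% were called higher and 6.33% lower, and the counts of every list are to be read against these shares. The number of PRC1 subunits called higher was 0 without Eed iKO 2 and 1 without control 1, control 2, Eed iKO 1 or Eed iKO 3, and that called lower 1 without control 2. Rnf2, a ubiquitin ligase of the complex, was higher, with no overlap of the groups, at 1809, 1628 and 1463 in the control libraries against 2221, 2503 and 2162 (log2 fold change 0.49, standard error 0.16, adjusted p = 0.2). Cbx2, a reader of the mark, was lower, at 1617, 1962 and 1982 in the control libraries against 1226, 1365 and 1191 (log2 fold change -0.55, standard error 0.17, adjusted p = 0.177). Rybp, a subunit of variant PRC1, was also called lower at a log2 fold change of -0.42. Phc3 had the largest mean of the list and was not called, at a log2 fold change of -0.18.

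Markers of the bulge were present in every library. Krt15, the keratin whose promoter drives the Cre, had 578146, 537242 and 609619 in control 1, 2 and 3, and 695369.7, 707811 and 619962 in Eed iKO 1, 2 and 3. The groups did not overlap, but the difference did not pass the test (log2 fold change 0.23, standard error 0.21, adjusted p = 0.653). Cd34, used in the sort, had 47502, 37765 and 46265 in the control libraries against 31535, 34014 and 38699 in the libraries labelled Eed iKO, with a single pair overlapping (log2 fold change -0.33, standard error 0.15, adjusted p = 0.34). Nfatc1, a factor that keeps bulge cells at rest, had 34575, 34106 and 30707 in the control libraries against 26047, 28802 and 21662 and was called lower (log2 fold change -0.39, standard error 0.15, adjusted p = 0.259). Over the 14 bulge markers, 1 was called higher and 3 lower, with a median log2 fold change of -0.04 against 0.00 over all genes tested. The number called higher was 0 without control 2 or Eed iKO 2 and 2 without control 3 or Eed iKO 3. The marker called higher was Itga6, the α6-integrin of the gate (log2 fold change 0.41), and Epcam and Ly6a, the genes of EpCAM and Sca1, were not called.

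The other markers called lower were Fgf18 and Tcf7l1. Fgf18, a growth factor that the resting bulge secretes, had 5020.2, 5091 and 8941 in control 1, 2 and 3, and 3553, 3077 and 4442 in Eed iKO 1, 2 and 3. Every library labelled Eed iKO lay below every control (log2 fold change -0.74, standard error 0.23, adjusted p = 0.175). Tcf7l1, a repressor of Wnt targets, had 2655, 2693 and 2698 in the control libraries against 2219, 2062 and 1570.0 in the libraries labelled Eed iKO (log2 fold change -0.47, standard error 0.17, adjusted p = 0.231). None of the remaining bulge markers was called, by limma, and apart from Cd34 their log2 fold changes ran from -0.24 for Lgr5 to 0.28 for Lhx2. Sox9, Tcf7l2, Postn, Foxc1, Tbx1 and Col17a1 lay between these at 0.14, -0.10, 0.02, 0.14, 0.04 and -0.19.

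Markers of cells outside the gate were read in both groups. In bulk RNA, fewer cells of a type and less RNA per cell cannot be told apart. Of 16 tested genes of Langerhans cells and T cells, immune cells of the epidermis, 4 were called higher and none lower. Of these 16, 11 had a positive and 5 a negative log2 fold change, down to -1.29. The groups did not overlap in 4 upwards and in 1 downwards, against 10.2% and 10% of all genes tested. The sum over the list's 22 measured genes was 1108 to 1857 in the control libraries and 1656 to 1954 in those labelled Eed iKO. Cd207, the langerin of Langerhans cells, was at 0 in all controls and at 18.3, 13.3 and 23.7 in Eed iKO 1, 2 and 3, and Tyrobp and Lyz2 were also at 0 in all controls. The summed fibroblast list was 18673 to 24111 in the control libraries and 17445 to 20212 in those labelled Eed iKO, and 2 of its 11 tested genes, Col1a1 and Thy1, were called lower. The number called lower was 1 without control 3, Eed iKO 1 or Eed iKO 2. Most of the sum came from the collagen genes Col6a1 and Col6a2. Sums of the melanocyte list, mostly from Mitf, were 7841 to 9131 in the control libraries and 7941 to 8885 in those labelled Eed iKO, with 1 of 6 tested genes, the pigment enzyme gene Tyrp1, called higher from 0, 6.50 and 0 to 17.2, 25.2 and 16.8, and not called without Eed iKO 2. The part of these cells in the results below was not tested.

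The methods set thresholds of 1.5 on the log2 fold change and of 0.05 on the p-value, read here as the unadjusted p, and 263 genes, or 1.75%, passed both. In the libraries labelled Eed iKO 124 of them (0.826%) were higher and 139 (0.926%) were lower. An adjusted p under 0.05 was reached by 3 genes that were higher and 1 that was lower, or 0.0267% of all tested (0.02% and 0.00666%), and these 4 also passed a linear fold of 1.5, which the study pairs with an adjusted p elsewhere. The unadjusted call alone took in 1257 higher and 950 lower genes. Among the gene lists with more than 20 tested members, the largest shares called higher were in lists of the ribosome, respiration and protein folding and breakdown, as the plot of called shares by gene list shows.

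**Figure D1:**
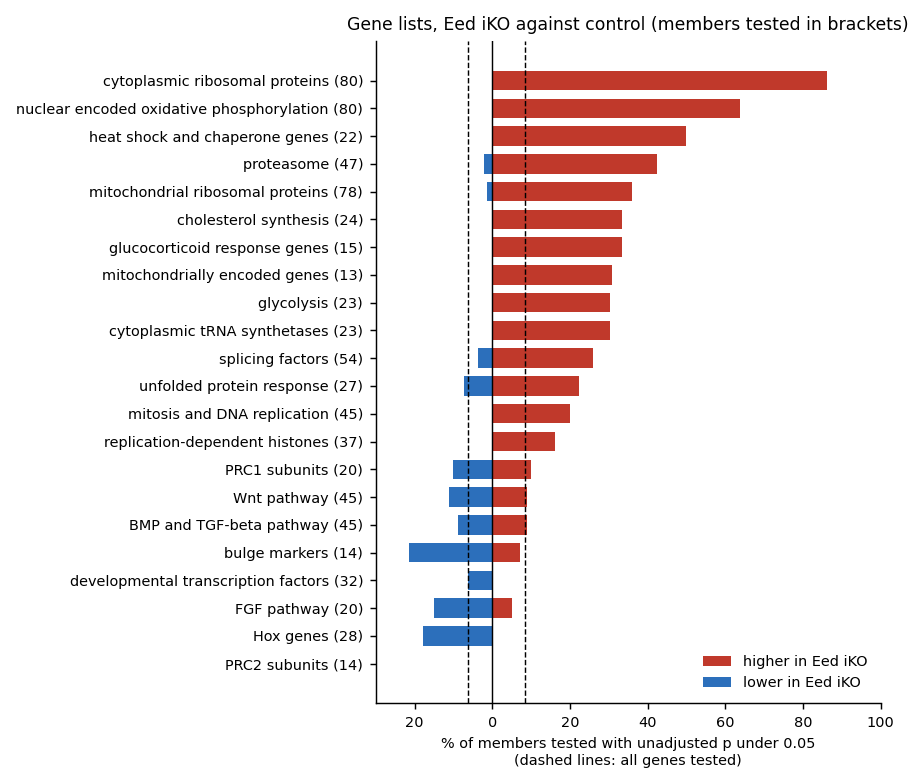
Horizontal bars give, for a selection of the 52 gene lists, the share of tested members (x axis, percent) with an unadjusted p under 0.05. Members higher in the libraries labelled Eed iKO are in red and lower ones in blue, and dashed lines mark 8.38% and 6.33% over all genes tested. Lists not drawn include DNA methylation, with 25% called lower, and suprabasal epidermis, with 21.4%. Cytoplasmic ribosomal proteins reach 86.2% and nuclear encoded oxidative phosphorylation 63.8%. Hox genes, PRC2 subunits and developmental transcription factors have no member called higher.

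Genes for the proteins of the cytoplasmic ribosome, the machine that makes protein in every cell, were higher in the libraries labelled Eed iKO. Of 80 tested, 69 were called higher and none lower, and all 80 had a positive log2 fold change. The median log2 fold change was 1.00, with a range of 0.14 to 2.14. In 39 of the 80 every library labelled Eed iKO lay above every control, which held for 10.2% of all genes. Of all reads, these genes took 3.22, 2.48 and 1.92% in control 1, 2 and 3, and 5.15, 5.65 and 3.16% in Eed iKO 1, 2 and 3. Eed iKO 3 thus lay just below control 1, the control with the highest share. The number called higher came to 55 to 78 with any 1 library left out.

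Rps26, a protein of the small subunit, was the member with an adjusted p under 0.05. It had 6311, 5878 and 5844 in control 1, 2 and 3, and 14469.6, 16469 and 11970.4 in Eed iKO 1, 2 and 3, more than in any control in each of the libraries labelled Eed iKO (log2 fold change 1.24, standard error 0.15, adjusted p = 0.0259). Rps28, also of the small subunit, had 6829, 5323 and 4513 in the control libraries against 16308, 19109 and 11745 in the libraries labelled Eed iKO (log2 fold change 1.49, standard error 0.20, adjusted p = 0.0549). Rpsa, which also serves as a laminin receptor, had 11792, 11559 and 7558 in the control libraries against 27655, 36209 and 16214 (log2 fold change 1.33, standard error 0.27, adjusted p = 0.0983). Rplp1, of the stalk of the large subunit, had 16401, 7711 and 7236 in the control libraries against 28191, 36159 and 17442, so that Eed iKO 3 lay just above control 1 (log2 fold change 1.43, standard error 0.32, adjusted p = 0.107). Rpl4, the member with the largest mean normalized count, had a smaller difference and overlapping groups (log2 fold change 0.50). Many ribosomal protein genes have near-identical processed copies in the genome, among which the pseudoaligner used by the authors shares out reads, so the values of single members such as Rps27rt are uncertain.

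Promoters of 59 of the tested ribosomal protein genes were found in RefSeq (GRCm38.p6), and those of Rps28 and Rpsa are printed because these genes were among the members that differed most. Each is the 120 bases before the transcription start in the direction of the gene, with the ETS core CTTCCG on either strand in capitals. They lie at chr17:33824563-33824682, minus strand, and chr9:120127646-120127765, plus strand.
Rps28: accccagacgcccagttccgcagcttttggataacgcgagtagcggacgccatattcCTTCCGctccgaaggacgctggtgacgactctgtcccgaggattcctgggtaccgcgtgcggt
Rpsa: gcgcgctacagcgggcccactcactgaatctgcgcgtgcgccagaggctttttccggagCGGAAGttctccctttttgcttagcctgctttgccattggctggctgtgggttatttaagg
The letters CTTCCG or their reverse complement occurred in the 250 bases before the start of 31 of these 59 promoters, or 52.5%. They occurred in 23.1% of the 11625 tested genes with a promoter entry and in 13.6% of all 32851 promoter windows. Among the proteasome genes described below they were found in 18 of 40 promoters, or 45%. For mitosis and DNA replication they were in 14 of 37 (37.8%). For nuclear encoded oxidative phosphorylation they were in 18 of 65 (27.7%) and for cholesterol synthesis in 4 of 17 (23.5%).

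Length moved with the log2 fold change. Over 15004 tested genes the log2 fold change and the median length of the annotated transcripts had a Spearman rho of -0.203 across genes, which are not independent replicates. Genes with transcripts of up to 500 bases had a median log2 fold change of 0.24, and those over 5000 bases -0.14. Ribosomal protein transcripts are short, with a median over genes of 628 bases. In each of the 4 length classes that hold them their median was above that of all genes, for example at 1.03 against 0.13 between 501 and 750 bases. The part of transcript length in the lists was not otherwise tested.

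**Figure D2:**
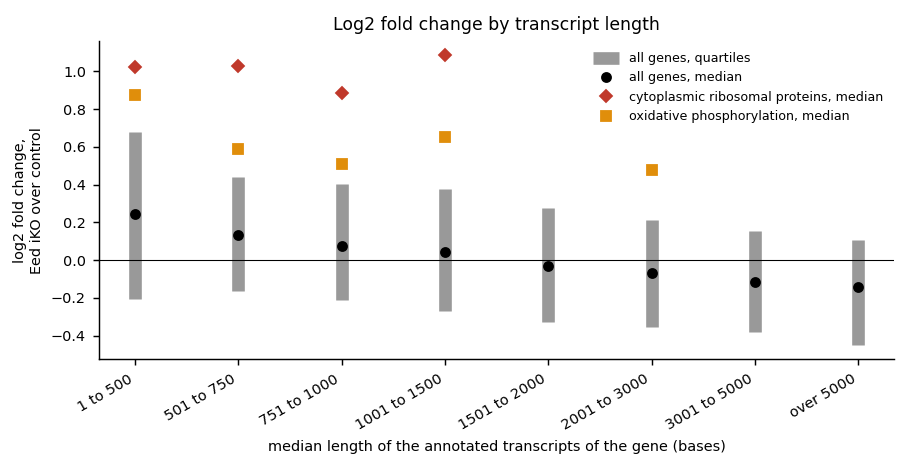
Black points and grey bars give the median and quartiles of the log2 fold change (y axis, Eed iKO over control) of all tested genes in classes of median annotated transcript length (x axis, bases), and red diamonds and orange squares the medians of cytoplasmic ribosomal protein and oxidative phosphorylation genes. The median of all genes falls from 0.24 to -0.14 across classes, and in the class of 501 to 750 bases the medians of the lists are 1.03 and 0.59.

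Nuclear genes for mitochondrial proteins were also called higher. Of 80 nuclear genes of oxidative phosphorylation, which build the respiratory chain and ATP synthase, 51 were called higher and none lower (median log2 fold change 0.63). Cox5a, a subunit of cytochrome c oxidase, had 479, 359 and 501 in control 1, 2 and 3, and 1614, 1891 and 1035 in Eed iKO 1, 2 and 3 (log2 fold change 1.73, standard error 0.27, adjusted p = 0.0754). The lowest library labelled Eed iKO held more than 2 times the highest control. Uqcr10, of complex III, had 903, 703 and 622 in the control libraries against 2411, 2284 and 1107 in the libraries labelled Eed iKO (log2 fold change 1.32, standard error 0.30, adjusted p = 0.107). Ndufa2, of complex I, differed by a log2 fold change of 1.14. Atp5b, the catalytic ATP synthase subunit with the largest mean, was not called and its groups overlapped (log2 fold change 0.17). The number of this list called higher was 33 without Eed iKO 2, and 37 to 57 without any other single library.

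Proteins of the mitochondrial ribosome translate the few genes of mitochondrial DNA. Of 78 tested, 28 were called higher and 1 lower (median log2 fold change 0.48). Mrps18b had 264, 292 and 266 in the control libraries against 742, 714 and 476 in the libraries labelled Eed iKO (log2 fold change 1.20, standard error 0.29, adjusted p = 0.113), and Mrpl24, with the largest mean, had a log2 fold change of 0.58. The count of genes called higher was 18 without control 2, 15 without Eed iKO 1 and 16 without Eed iKO 2, and 23 to 32 without any other single library. Of the 13 genes encoded in mitochondrial DNA, 4 were called higher. mt-Co2, a core subunit of cytochrome c oxidase, had 40494, 30326 and 27511 in control 1, 2 and 3, and 73699.6, 82286 and 46729 in Eed iKO 1, 2 and 3 (log2 fold change 1.02, standard error 0.22, adjusted p = 0.104). Its groups were well apart, whereas mt-Co1, with the largest mean normalized count of the 13, had its lowest value of all in Eed iKO 3 and a log2 fold change of 0.02. The number called in this list was 2 without Eed iKO 2 and 10 without Eed iKO 3, and 3 to 5 without any other single library.

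The proteasome degrades tagged proteins, and 20 of its 47 tested subunits and assembly factors were called higher and 1 lower (median log2 fold change 0.41). Psmd4, a ubiquitin receptor of the complex, had 1351, 1415 and 1198 in control 1, 2 and 3, and 2347, 2721 and 2050.4 in Eed iKO 1, 2 and 3 (log2 fold change 0.84, standard error 0.17, adjusted p = 0.0994). Psme2, an activator subunit, and Psmg3, an assembly factor, had log2 fold changes of 0.88 and 1.14. These genes were chosen among members without overlap, which held upwards for 15 of the 47, against 10.2% of all genes. The number called higher was 11 without control 2, 12 without control 3, 7 without Eed iKO 1 and 8 without Eed iKO 2, and 20 to 25 without any other single library.

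Of 22 heat shock and chaperone genes, 11 were called higher and none lower (median log2 fold change 0.42). Hspa5, the chaperone of the endoplasmic reticulum, had 15231, 10542 and 18237 in control 1, 2 and 3, and 22620.0, 25253 and 28848 in Eed iKO 1, 2 and 3, each library labelled Eed iKO above each control (log2 fold change 0.83, standard error 0.20, adjusted p = 0.113). Hspd1 and Hspa9, chaperones of the mitochondrial matrix, had log2 fold changes of 0.77 and 0.67, and Hsp90ab1, with the largest mean, 0.47. Their count was 7 without control 2 and 7 without Eed iKO 2, and 9 to 16 without any other single library. In the unfolded protein response, the programme that senses misfolded protein in the endoplasmic reticulum, 6 of 27 genes were called higher and 2 lower. These were 22.2% and 7.4%. Trib3, a pseudokinase induced by that stress, went from 1.39, 2.17 and 5.44 in the controls to 29.0, 19.9 and 82.1 (log2 fold change 3.36, adjusted p = 0.146). Herpud1, a factor in the removal of misfolded protein, had a log2 fold change of 0.95. The number of the response called higher was 10 without Eed iKO 3, and 6 to 9 without any other single library, and that called lower was 0 without control 1, control 3, Eed iKO 1 or Eed iKO 2.

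Genes that handle RNA and tRNA were called in part. Of 54 splicing factors, 14 were called higher and 2 lower (25.9% and 3.7%, median log2 fold change 0.20). Snrpe, a core protein of spliceosomal particles, had 526, 487 and 580.3 in the control libraries against 1405, 1182 and 815 in the libraries labelled Eed iKO (log2 fold change 1.06, standard error 0.25, adjusted p = 0.111), whereas Sf3a2, a part of the U2 particle, was lower at 700.0, 1015 and 1571 in the control libraries against 523, 566 and 434 (log2 fold change -1.04, standard error 0.30, adjusted p = 0.155), and the number called lower was 1 without control 2 or Eed iKO 1. Hnrnpa2b1, with the largest mean normalized count, had a log2 fold change of 0.43 with little spread in either group. Of 23 genes of cytoplasmic tRNA synthetases, which load tRNAs with amino acids, 7 were called higher and none lower, Gars having the largest difference (log2 fold change 0.78). This count was 4 without Eed iKO 2, and 5 to 8 without any other single library. In tRNA processing, 5 of 22 were called higher, among them the ligase gene Rtcb (0.62) and Tsen34, a subunit of the tRNA splicing endonuclease.

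Members of metabolic lists were also called higher. In cholesterol synthesis, 8 of 24 genes were called higher and none lower (median log2 fold change 0.45). Cyp51, a demethylase of the pathway, had 829.8, 1138 and 1084 in control 1, 2 and 3, and 1801, 1787 and 1731 in Eed iKO 1, 2 and 3 (log2 fold change 0.81, standard error 0.19, adjusted p = 0.107), and Msmo1, another of its enzymes, a log2 fold change of 0.95. In both of these genes all libraries labelled Eed iKO lay above all controls, while Srebf2, the transcription factor of the pathway, was not called (-0.14). The count was 4 without Eed iKO 2, and 6 to 12 without any other single library, and the number called lower was 1 without Eed iKO 1 and 2 without control 2.

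In glycolysis, 7 of 23 genes were called higher and none lower (median log2 fold change 0.28). Pfkfb3, whose product makes the activator of phosphofructokinase, had 125, 136 and 261 in control 1, 2 and 3, and 497, 640.1 and 482 in Eed iKO 1, 2 and 3 (log2 fold change 1.70, standard error 0.36, adjusted p = 0.104). Pfkl, a phosphofructokinase, and Pgam1, a mutase further down the pathway, had log2 fold changes of 1.01 and 0.51, both without overlap, and Gapdh overlapped (0.34). The count was 4 without Eed iKO 1 and 3 without Eed iKO 2, and 6 to 8 without any other single library. Of 22 fatty acid synthesis genes, 3 were called higher and 1 lower (13.6% and 4.5%). The first count was 1 without Eed iKO 1, 5 without Eed iKO 3 and 6 without control 3. The second was 2 without control 1 and 4 without Eed iKO 3. The gene called lower was Tecr, a reductase of chain elongation, with 22589, 21684 and 29868 in the control libraries against 15752, 17575 and 17618 (log2 fold change -0.53, standard error 0.15, adjusted p = 0.156).

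RU-486 binds the glucocorticoid receptor as well as the progesterone receptor domain fused to the Cre, and genes that respond to glucocorticoids were therefore listed. The cells were sorted at postnatal day 70, and RU-486 had been applied for 7 days from day 50. Of 15 tested, 5 (33.3%) were called higher and none lower, with a median log2 fold change of 0.02. Of all 15, 9 had a positive and 6 a negative log2 fold change, down to -0.91. The part of RU-486 in these values was not tested. Tsc22d3, a classical target of the receptor, had 2007, 1765 and 1896 in control 1, 2 and 3, and 4084, 3765 and 2708 in Eed iKO 1, 2 and 3 (log2 fold change 0.88, standard error 0.18, adjusted p = 0.0992). Fkbp5, a co-chaperone of the receptor, had 441, 233 and 580.3 in the control libraries against 1179.5, 718 and 740.5 in the libraries labelled Eed iKO (log2 fold change 1.13, standard error 0.36, adjusted p = 0.18). The groups were apart in both, as they were for Mt1, a metallothionein (log2 fold change 0.92).

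Cell cycle genes divided the libraries more than the groups. Of 45 genes of mitosis and DNA replication, 9 were called higher and none lower, and the median log2 fold change was 0.70. The median deviation of the list from the mean of the 6 libraries, on the log2 scale, was -0.41, 0.08 and -0.28 in control 1, 2 and 3, and 0.63, 0.86 and -0.45 in Eed iKO 1, 2 and 3. Eed iKO 1 and 2 were thus the highest and Eed iKO 3 the lowest library. Mki67, a marker of cycling cells, had 639, 2543 and 928 in control 1, 2 and 3, and 6125, 6301 and 609 in Eed iKO 1, 2 and 3, and Top2a, the topoisomerase of mitosis, had 642, 755 and 256 in the control libraries against 3005, 2750.3 and 299.6 in the libraries labelled Eed iKO. Both followed this split, and neither was called (log2 fold changes 1.32 and 1.44). The number of genes called higher in the list was 5 without control 1, 4 without Eed iKO 1, 4 without Eed iKO 2 and 28 without Eed iKO 3, and 9 to 10 without any other single library. Without Eed iKO 3, 9.65% of all genes were called higher and 6.77% lower.

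Members with groups that did not overlap were fewer. Cdk1, the kinase that starts mitosis, had 27.8, 41.2 and 49 in control 1, 2 and 3, and 276, 158 and 57.3 in Eed iKO 1, 2 and 3 (log2 fold change 1.80, standard error 0.64, adjusted p = 0.23). Eed iKO 3 lay just above control 3. Nusap1, a spindle protein, and Pola1, a subunit of the polymerase that starts DNA synthesis, had log2 fold changes of 1.37 and 0.88. Replication-dependent histones, made in S phase, had 6 of 37 tested genes called higher and none lower. Hist1h1b, a linker histone, had 13.9, 24.9 and 0 in the control libraries against 269.9, 229.7 and 28.7 in the libraries labelled Eed iKO (log2 fold change 4.08, adjusted p = 0.175). The number of histones called higher was 3 without control 3, 3 without Eed iKO 1, 3 without Eed iKO 2 and 11 without Eed iKO 3, and 4 to 5 without any other single library. Ccnd1, the cyclin of early G1, was also higher, at 4097, 4084 and 4044 in the control libraries against 5874, 7157 and 4649.5 (log2 fold change 0.51, standard error 0.17, adjusted p = 0.196), and E2f1, a factor that turns on replication genes, had a log2 fold change of 2.17. Cdkn1a, an inhibitor of the cycle, had 18747, 12420.1 and 32501 in the control libraries against 13243, 15559 and 36078 with overlapping groups (log2 fold change -0.01).

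The promoters of Cdk1 and Top2a are printed because these genes carried the split between the libraries labelled Eed iKO. Each shows the 120 bases before the start, from RefSeq (GRCm38.p6), with the CCAAT box (CCAAT) and the cell cycle element called CHR (TTTGAA or TTCGAA), on either strand, in capitals. They lie at chr10:69352913-69353032 and chr11:99024190-99024309, both on the minus strand.
Cdk1: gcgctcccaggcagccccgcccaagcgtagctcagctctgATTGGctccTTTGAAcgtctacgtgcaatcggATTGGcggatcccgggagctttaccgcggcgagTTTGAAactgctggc
Top2a: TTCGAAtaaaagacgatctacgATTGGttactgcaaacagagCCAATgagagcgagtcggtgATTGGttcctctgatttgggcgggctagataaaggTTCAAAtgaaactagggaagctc
Of 37 promoters of the list with an entry, 30 held CCAAT in the 250 bases before the start (81.1%) and 13 held a CHR (35.1%). Over the 11625 tested genes with an entry the shares were 36.4% and 13.3%, and over all 32851 windows 33.8% and 17.1%. CCAAT was also found in 15 of 17 promoters of cholesterol synthesis genes (88.2%). Its shares were 43.1% for oxidative phosphorylation, 35% for the proteasome and 28.8% for cytoplasmic ribosomal proteins.

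Developmental regulators that Polycomb keeps silent in many tissues were next examined. Of 53 developmental transcription factors measured, 32 passed the filter, none was called higher and 2 were called lower (median log2 fold change -0.15). The number called lower was 0 without control 2 or Eed iKO 2 and 1 without control 1, control 3 or Eed iKO 3. Sox21, a SOX factor of the hair follicle, was 1 of the 2, at 2231, 1903 and 1702 in the control libraries against 1677, 1125 and 1376 (log2 fold change -0.49, standard error 0.20, adjusted p = 0.284). Foxc2, a forkhead factor, was at 0 in every control and had 1.08, 10.6 and 33.6 in Eed iKO 1, 2 and 3. Edar, the ectodysplasin receptor of hair placodes, was at 0 in every control and had 30.1, 0 and 4.94. Both genes were below the filter and were not tested.

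Hox genes, which record position along the body, had no member called higher (1 without control 2, Eed iKO 2 or Eed iKO 3) and 5 of 28 tested called lower (median log2 fold change -0.15). Hoxb8 had 1825, 2429.6 and 2513 in control 1, 2 and 3, and 1183, 1219 and 1234 in Eed iKO 1, 2 and 3 (log2 fold change -0.88, standard error 0.18, adjusted p = 0.0968). Each library labelled Eed iKO was below each control, as also for Hoxb5 and Hoxa3 (log2 fold changes -0.84 and -0.63), whereas Hoxa7, with the largest mean, overlapped (-0.24). Of the 6 Merkel cell genes tested, touch receptor genes that Polycomb silences in epidermis, none was called, by limma, in either direction, and 1 was called lower without control 3. Among 22 tested genes of the matrix and hair shaft, the progeny of activated stem cells, 2 were called higher and 1 lower. These were 9.1% and 4.5%, close to the shares of all genes. The genes called higher were the keratin genes Krt27 and Krt32. The number called higher was 0 without control 1 or Eed iKO 1 and 1 without Eed iKO 2 or Eed iKO 3. The gene called lower was Dlx3, a homeobox factor of the hair shaft, with 4080.1, 3452 and 4965 in control 1, 2 and 3, and 2145, 1586 and 2356 in Eed iKO 1, 2 and 3 (log2 fold change -1.04, standard error 0.20, adjusted p = 0.0899), the groups lying apart.

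Pathways that time the hair cycle had members called in both directions, to be read against the 8.38% and 6.33% of all genes. In the Wnt pathway, which starts anagen, 4 of 45 genes were called higher and 5 lower, or 8.89% and 11.1%. The number called higher was 0 without Eed iKO 1, 1 without Eed iKO 2 and 2 without control 1 or control 2. Fzd7, a Wnt receptor, had 37905, 38839.6 and 37917 in control 1, 2 and 3, and 23324, 23802 and 24092 in Eed iKO 1, 2 and 3 (log2 fold change -0.69, standard error 0.12, adjusted p = 0.0839). Fzd2, another receptor, had 23554, 25242 and 27891 in the control libraries against 14337, 14973 and 16161 in the libraries labelled Eed iKO (log2 fold change -0.75, standard error 0.13, adjusted p = 0.083). The spread within groups was small beside these differences. The ligand Wnt7b was higher (0.70), Lef1, a factor that acts with β-catenin, had a log2 fold change of -0.16 and was not called, and neither was Sfrp1, an inhibitor with the largest mean (0.07).

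In the BMP and TGF-β pathway, whose BMP branch keeps bulge cells at rest, 4 of 45 were called higher and 4 lower, or 8.89% each, close to the shares of all genes. The first count was 2 without control 1, and the second 0 without Eed iKO 1, 1 without control 2 or Eed iKO 3 and 2 without control 1. Id1, a direct BMP target, had 2909, 2357 and 4564 in control 1, 2 and 3, and 5861, 5822 and 9843 in Eed iKO 1, 2 and 3, with no overlap (log2 fold change 1.14, standard error 0.26, adjusted p = 0.107). Id2, of the same family, had a log2 fold change of 0.58, and the activin receptor gene Acvr2b one of -0.50. In the FGF pathway, 1 of 20 was called higher and 3 lower, or 5% and 15%. Those lower were Fgf18 and the feedback inhibitors Spry1 (-0.61) and Spred2 (-0.49). The number called higher was 0 without control 1, control 2, Eed iKO 1 or Eed iKO 3. The Notch list had 2 of 22 called higher, among them the ligand Dll1 (0.59), and 2 lower, or 9.09% each. Those lower were Ncstn of γ-secretase (-0.57) and the coactivator Maml2 (-0.50). The first of these counts was 0 without Eed iKO 3 and 1 without control 1 or Eed iKO 2, and the second 4 without control 2. In the Hedgehog list 1 of 15 was called in each direction, or 6.67%, Kif7, a kinesin of the cilium, being higher (0.75). The higher count was 2 without Eed iKO 3. The lower one was 0 without control 1, control 2, Eed iKO 1 or Eed iKO 3 and 2 without Eed iKO 2.

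Other chromatin genes included DNA methylation readers. Of 12 genes of DNA methylation, 3 were called higher and 3 lower, or 25% each. Mbd3, a subunit of the NuRD complex, had 1169.7, 1389.8 and 1222 in control 1, 2 and 3, and 2509, 2293 and 2059 in Eed iKO 1, 2 and 3 (log2 fold change 0.86, standard error 0.17, adjusted p = 0.0917). Mbd2, which binds methylated DNA, had 3532, 3967 and 4080.2 in the control libraries against 6751, 7442 and 5776 in the libraries labelled Eed iKO (log2 fold change 0.78, standard error 0.15, adjusted p = 0.0899). Both were higher without overlap, while Mbd1, another reader, and Tet3, an enzyme that oxidizes methylcytosine, were lower without overlap (log2 fold changes -0.59 and -0.46). Among 12 genes for enzymes that remove methyl groups from lysine 27, acetylate it or methylate lysine 4, none was called higher and Kdm6a, a demethylase, was called lower (-0.37), though not without Eed iKO 1.

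Adhesion and keratinocyte genes completed the lists. Krt14, the basal keratin that pairs with KRT5, had 62887, 65366 and 87613 in control 1, 2 and 3, and 118195, 141718 and 118609 in Eed iKO 1, 2 and 3 (log2 fold change 0.82, standard error 0.18, adjusted p = 0.104). The groups did not overlap, whereas those of Krt5 did (log2 fold change 0.01). Of 12 genes of hemidesmosomes and their laminin, which anchor basal cells, Krt14 and Itga6 were the 2 called higher, and none was called lower. Without control 2 the count was 1. Itgb1, the partner of many integrins, was higher (0.37) and Sparc, a matrix glycoprotein, lower (-0.60). Of 18 junction genes, Dsp, the desmosomal plakin (0.42), and Cdh3, P-cadherin (0.56), were called higher and Dsc1 lower (11.1% and 5.6%). The higher count was 1 without control 1, control 2, Eed iKO 1 or Eed iKO 2, and the lower one 0 without control 1, control 3 or Eed iKO 2 and 2 without Eed iKO 3. In the epidermal differentiation complex, 4 of 21 tested were called higher, all of them genes for S100 calcium binding proteins rather than for the cornified envelope. S100a6 had 50760.0, 32884 and 31445 in the control libraries against 102444, 103029 and 62205 (log2 fold change 1.21, standard error 0.24, adjusted p = 0.0917), while Flg, filaggrin, was called lower (-1.51), a count that was 0 without control 2 or Eed iKO 2 and 2 without Eed iKO 3.

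**Figure D3:**
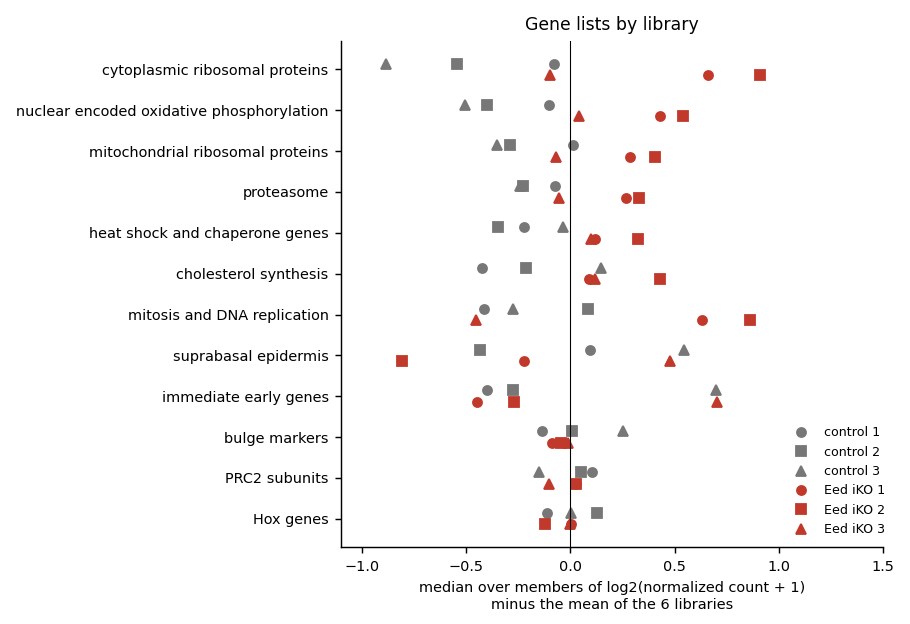
Points give, for 12 gene lists (y axis), the median over tested members of log2(normalized count + 1) minus the mean of the 6 libraries (x axis, log2 units), with controls in grey, libraries labelled Eed iKO in red, and circles, squares and triangles for replicates 1, 2 and 3. Eed iKO 1 and 2 lie highest for ribosomal proteins (0.66 and 0.91) and for mitosis and DNA replication (0.63 and 0.86), where Eed iKO 3 lies at -0.10 and -0.45, and control 3 and Eed iKO 3 lie together for immediate early genes at 0.70.

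Well expressed genes, with a mean of at least 500 over the 6 libraries, numbered 8608. Of these, 567 were higher and 253 lower by more than 1.5-fold with an unadjusted p under 0.05, which is 6.59% and 2.94% (9.53% in either direction), and in 451 and 213 of them the groups did not overlap. Over all well expressed genes, the groups were apart for 13% upwards and 11.2% downwards. Among the 451 were 38 cytoplasmic ribosomal proteins, 29 genes of oxidative phosphorylation, 9 mitochondrial ribosomal proteins and 6 proteasome genes, 82 in all. The genes with the largest log2 fold changes without overlap were Cox5a, Rps27rt, Prmt1, Rpf2, Timm8b, Rps28, 2310011J03Rik, Rplp1, Atox1 and Tsen34. Prmt1, the main enzyme that puts asymmetric methyl marks on arginine, had 484, 572 and 591 in control 1, 2 and 3, and 1654, 1794 and 1630.3 in Eed iKO 1, 2 and 3 (log2 fold change 1.63, standard error 0.19, adjusted p = 0.0259). Tsen34, named above for tRNA splicing, had 829, 742 and 764 in the control libraries against 2016, 1875 and 2132 in the libraries labelled Eed iKO (log2 fold change 1.37, standard error 0.17, adjusted p = 0.0364). Of all genes tested these were, with Rps26, the higher ones with an adjusted p under 0.05.

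The remaining genes of this set were higher in all 3 libraries labelled Eed iKO, with Eed iKO 3 the lowest of the 3 in most. Rpf2, a factor of ribosome assembly, had 316, 200.4 and 338 in the control libraries against 1201, 929.6 and 553 (log2 fold change 1.61, standard error 0.34, adjusted p = 0.103). Timm8b, a chaperone of mitochondrial import, and Atox1, a copper chaperone, had log2 fold changes of 1.58 and 1.41. For 2310011J03Rik, an uncharacterized gene, the values were 287, 319.5 and 279 in the control libraries against 974, 736 and 794 (log2 fold change 1.49, standard error 0.25, adjusted p = 0.083), and Rps27rt, a copy of a ribosomal protein gene, had a log2 fold change of 1.68.

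Genes lower by the same rule were Gm49369, Hid1, Scly, Fancg, Dsc1, Pcdhga11, Ndor1, Rnf165, Ppargc1a and Slc16a14. Hid1, a Golgi protein of dense core vesicles, had 793, 886 and 669 in control 1, 2 and 3, and 212, 208 and 242 in Eed iKO 1, 2 and 3 (log2 fold change -1.81, standard error 0.27, adjusted p = 0.0689). Scly, a selenocysteine lyase, and Fancg, of the Fanconi anaemia complex, had log2 fold changes of -1.43 and -1.30. Ppargc1a, a coactivator of mitochondrial genes, was lower, at 1383, 1267 and 1656 in the control libraries against 582, 515 and 827 (log2 fold change -1.18, standard error 0.23, adjusted p = 0.0917), in the libraries in which oxidative phosphorylation genes were higher. Slc16a14, of the monocarboxylate transporter family, had 2071, 2274 and 2142 in the control libraries against 1106, 1044 and 928, with very little spread (log2 fold change -1.08, standard error 0.17, adjusted p = 0.0754). Dsc1, a desmosomal cadherin of suprabasal cells, and Rnf165, a ubiquitin ligase, were lowest in Eed iKO 2 and close to the controls in Eed iKO 3, at 1154 against 1275 to 1406 and at 1471 against 1713 to 1850. Pcdhga11, a protocadherin, and Ndor1, an oxidoreductase, share 73.6% and 68.6% of their exon bases with other genes, which makes their log2 fold changes of -1.26 and -1.22 uncertain.

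**Figure D4:**
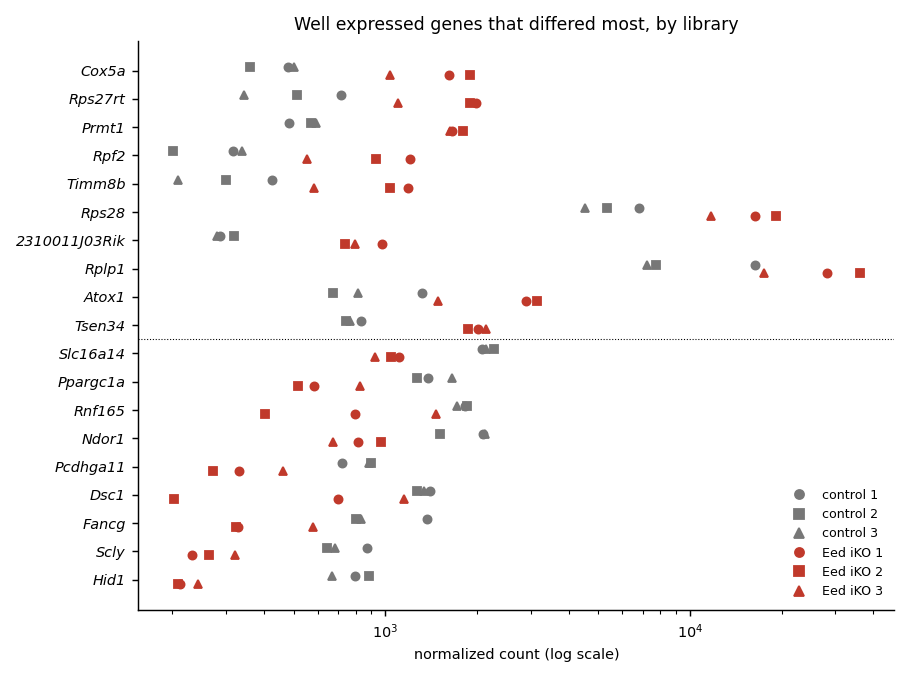
Normalized counts (x axis, log scale) of the well expressed genes with the largest log2 fold changes without overlap, higher above the dotted line and lower below it, with 1 point per library (grey, control; red, labelled Eed iKO; circles, squares and triangles, replicates 1, 2 and 3). Gm49369 is left out because it is at 0 in all libraries labelled Eed iKO. For Prmt1 the red points lie between 1630 and 1794 and the grey ones between 484 and 591.

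Gm49369 was the gene with the smallest adjusted p. It had 1623, 1876 and 3694 in control 1, 2 and 3 and no read in any library labelled Eed iKO, at least 707-fold lower when set against a floor of 3 reads per library (adjusted p = 2.67e-05). The gene (ENSMUSG00000110040.1) is annotated at chr7:142371096-142382667 (GRCm38, minus strand), and 100% of its exon bases are shared with other genes of the annotation. Ctsd, the cathepsin D gene that overlaps it on the same strand, had 11109, 9287 and 14084 in the control libraries against 10599.8, 9227 and 11394 (log2 fold change -0.13). Reads of these genes cannot be told apart by their position, so the value of Gm49369 is uncertain. Reads in the other direction were rare. At 0 in every control and over 3 reads in each library labelled Eed iKO were 7 genes, Tex11, Slpi, Hist1h2ag, Slc5a5, Oc90, Gpbar1 and Cd207, and none of the 7 exceeded 33 reads in a library. At 0 in every library labelled Eed iKO and over 3 reads in each control were Gm49369, Sycp2 and A730071L15Rik. With at least 1 read in a single group only, 430 genes were read in the libraries labelled Eed iKO alone and 316 in the controls alone.

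The spread within groups was not the same for all libraries. The SD over tested genes of a library's log2 value minus the mean of the other 2 libraries of its group was 0.937, 0.905 and 0.924 for control 1, 2 and 3, and 0.718, 0.819 and 0.863 for Eed iKO 1, 2 and 3. Within their groups control 1 and Eed iKO 3 were the furthest by this measure, the former by little. All 3 controls had a larger SD than Eed iKO 3. Over the 8608 well expressed genes the SD was 0.407, 0.360 and 0.408 for control 1, 2 and 3, and 0.261, 0.356 and 0.432 for Eed iKO 1, 2 and 3, so that control 3 lay as far out as control 1. Of these genes, 147 were more than 2-fold higher and 115 more than 2-fold lower in Eed iKO 3 than in the other 2 libraries with its label, against 19 and 15 for Eed iKO 1 and 39 and 88 for Eed iKO 2. For control 1, 2 and 3 the numbers higher were 72, 48 and 147, and those lower 105, 80 and 73, so that control 3 had as many genes above its group as Eed iKO 3. Across genes, Eed iKO 3 had a Pearson correlation of 0.954 with control 3, 0.952 with Eed iKO 1 and 0.944 with Eed iKO 2, a description over genes that share their mean levels. Pairs of controls had 0.936 (1 and 2), 0.933 (1 and 3) and 0.936 (2 and 3), below those of Eed iKO 3 with its group.

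Genes of Eed iKO 3 furthest below its group were Bgn, Cenpf, Mki67, Anln and Top2a. Cenpf, a kinetochore protein, had 118, 726 and 129 in control 1, 2 and 3, and 1829, 1286 and 105 in Eed iKO 1, 2 and 3, and Anln, a protein of the cleavage furrow, 278, 482 and 302 in the control libraries against 1504, 1551 and 154 in the libraries labelled Eed iKO. Together with Mki67 and Top2a these are genes of dividing cells. Bgn, a small proteoglycan of connective tissue, had 708, 629 and 240.3 in the control libraries against 1705, 1499 and 101. Genes furthest above its group were Fa2h, Krt1, Krt77, Krt10 and Elovl4. Krt1, a keratin of suprabasal epidermis, had 2138, 1802 and 11927 in control 1, 2 and 3, and 1988, 772 and 11058 in Eed iKO 1, 2 and 3, and its partner Krt10 had 7484, 5443 and 26841 in the control libraries against 10738, 3429 and 45519.7. Fa2h, an enzyme of skin lipids, had 384, 232 and 3058 in the control libraries against 266, 104 and 2293. In Krt1 and Fa2h, Eed iKO 3 and control 3 were the highest libraries, far above the other 4, while Top2a was lowest in these 2 libraries. Immediate early genes, induced within minutes by stress such as tissue dissociation, showed the same pair, with a median deviation of -0.40, -0.28 and 0.70 in control 1, 2 and 3, and -0.45, -0.27 and 0.70 in Eed iKO 1, 2 and 3. Egr1, with the largest mean normalized count of them, had 259639, 266169 and 530754 in the control libraries against 251849.7, 359257 and 494634.

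In control 1, the genes furthest below the other controls were Pcdhgb1, Zfp827, Mgll, Kifc2 and Rpl29, and those furthest above were Slirp, Jpt1, Coa3, Dpysl3 and Hscb. Rpl29, a ribosomal protein gene, had 695, 7029 and 813 in control 1, 2 and 3, and 10014, 16728 and 2016 in Eed iKO 1, 2 and 3. Its values crossed the groups, with control 2 above Eed iKO 3. Slirp, a mitochondrial RNA binding protein, had 1081, 281 and 193 in the control libraries against 827, 797 and 457, so that control 1 lay with the libraries labelled Eed iKO.

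**Figure D5:**
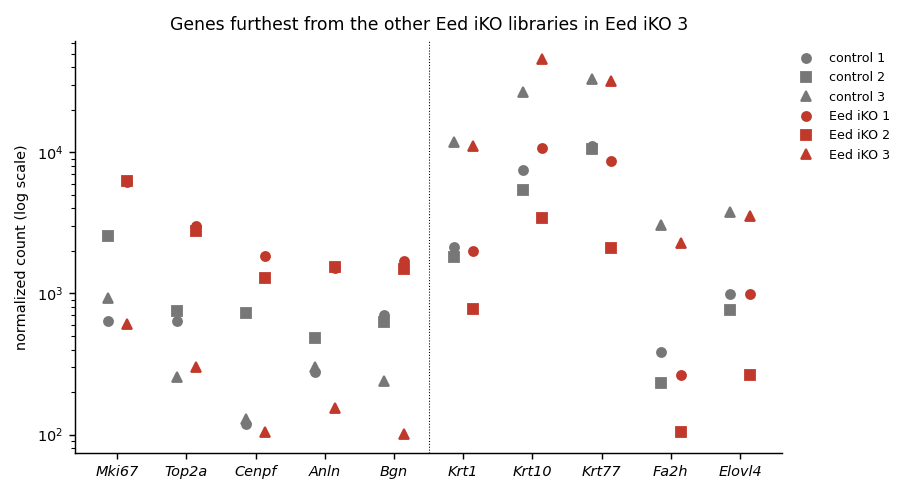
Normalized counts (y axis, log scale) of the genes in which Eed iKO 3 was furthest below (left of the dotted line) or above (right) the other 2 libraries of its label, with 1 point per library (grey, control; red, labelled Eed iKO; circles, squares and triangles, replicates 1, 2 and 3). For Mki67, Eed iKO 1 and 2 are at 6125 and 6301 and Eed iKO 3 at 609, and for Krt1 the triangles of control 3 and Eed iKO 3 lie together at 11927 and 11058.

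Counts depended on which library was left out. Without Eed iKO 3, 154 genes (1%) were higher and 34 (0.221%) lower at an adjusted p under 0.05, and all 4 genes of the comparison of 3 against 3 were among these 188. They included 59 cytoplasmic ribosomal proteins and 13 genes of oxidative phosphorylation. Without control 1, 2 or 3, or Eed iKO 1 or 2, Gm49369 was the only gene with an adjusted p under 0.05. At the thresholds of the methods, 263 genes became 449 without Eed iKO 3 and 410 without control 3, and between 217 and 351 without any other library. The 2207 genes of the unadjusted call became 1388 without Eed iKO 1, and between 1494 and 2526 without any other library. The median log2 fold change of cytoplasmic ribosomal proteins was 1.35 without Eed iKO 3 in place of 1.00, and that of mitosis and DNA replication 1.22 in place of 0.70.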

How the data were processed

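Total RNA from sorted HFSCs was amplified from 10 ng with the Ovation RNA-seq System V2, made into libraries and sequenced in 150-nucleotide paired reads. According to the methods, the authors pseudoaligned reads with Kallisto 0.42.5 to Gencode vM20 transcripts, summed them per gene and divided them by DESeq2 size factors. The deposited values are these normalized counts, a signal per gene that scales with transcript length as well as abundance, so that levels of different genes were not compared. In all 6 libraries the values were whole multiples of 1 read within 0.05 reads (for 100% of values), and reads per library were recovered from them. The deposited table also holds the authors' own fold changes and p-values, which were not used, and the hair cycle libraries, normalized in a separate table, were not used here.

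Genes were tested with limma 3.58.1 (R 4.3.3), with an intensity trend, on log2(normalized count + 1) after filterByExpr of edgeR 4.0.16 with a count minimum of 10. Fold changes are on that scale and understate the change of low genes. Calls used the thresholds of the methods, an unadjusted p under 0.05, an adjusted p under 0.05 (Benjamini-Hochberg), or, for a mean of at least 500, a fold of over 1.5 with an unadjusted p under 0.05. Counts called in a list are to be read against the shares of all genes tested, 8.38% higher and 6.33% lower. No set test was run. Members and the 52 gene lists were chosen with earlier results of these data known. Named genes were Eed, Ezh2, Ezh1 and Suz12, the bulge markers, every gene with an adjusted p under 0.05, the 10 well expressed genes with the largest fold in each direction without overlap, in each list the member with the largest mean and up to 3 with the largest fold and no overlap, the 5 genes in each direction furthest from the group in the departing library, and a few regulators of hair growth. Mki67, Top2a, Krt1, Lars2, Ddx3y and Ctsd, the members of lists named without a fold change, and the genes whose promoters are printed were chosen after their values were seen. Symbols that a spreadsheet had turned into dates (25) were followed by identifier, and 17879 of 17885 genes were matched to GENCODE vM21 for position, length and overlap. Promoter windows are those of RefSeq. Alternatives were pseudocounts of 0.1 and 5, no filter, TMM scaling, no trend, array quality weights, edgeR and DESeq2 1.42.0 on recovered reads, a replicate block, and leaving out each library. The fit was tested on simulated data. Cdkn2a was not analysed here. Reads carry no molecular identifiers, so floors cover counting error only.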

Additional observations from a re-analysis of the deposited data

How the results depend on the processing

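Counts of genes moved more than the direction of named genes. At the thresholds of the methods, 263 genes became 425 with no filter on low values (17885 genes tested) and 449 with array quality weights, which give libraries that stand apart less weight. The 4 genes with an adjusted p under 0.05 became 2 without an intensity trend, 561 with array quality weights, 5 by edgeR and 673 by DESeq2 on recovered reads (444 higher, 229 lower). The 2207 genes with an unadjusted p under 0.05 became 3317 with array quality weights. In the remaining alternatives, which were pseudocounts of 0.1 and 5 and TMM scaling, the 4 counts stayed within 1.5 times. The cause of these moves was not tested.

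Leaving out each library in turn gave 217 to 449 genes at the thresholds of the methods, 1 to 188 with an adjusted p under 0.05, 1388 to 2526 with an unadjusted p under 0.05 and 661 to 1146 well expressed genes changed 1.5-fold, against 820. Where 2 libraries were left in a group, the fit shared the spread of both groups. Median log2 fold changes of the 52 lists moved by less than the spread between libraries in 463 of 468 other settings and in 289 of 312 with a library left out.

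Of the 136 genes named with a fold change besides Eed, 5 changed sign under another setting, each of them with overlapping groups. With array quality weights Ezh2 was at 0.017, Tbx1 at -0.050 and Egr1 at -0.15. By edgeR and DESeq2 Eed was at 0.0046 and 0.0025, Postn at -0.0016 and -0.0071 and Cdkn1a at 0.036 and 0.026. When a library was left out, the log2 fold change ran from -0.17 to 0.10 for Eed, -0.22 to 0.015 for Ezh2, -0.0094 to 0.24 for Suz12, -0.041 to 0.33 for Sox9, -0.27 to 0.045 for Tcf7l2, -0.15 to 0.22 for Postn, -0.061 to 0.25 for Foxc1, -0.17 to 0.24 for Tbx1, -0.45 to 0.35 for Cdkn1a, -0.039 to 0.18 for Sfrp1, -0.14 to 0.43 for Egr1, -0.20 to 0.37 for mt-Co1, -0.071 to 0.092 for Krt5, -0.067 to 0.52 for Krt6a, -0.28 to 1.75 for Bgn, -0.76 to 1.10 for Krt10, -1.53 to 0.39 for Krt1, -1.96 to 0.42 for Fa2h, -0.47 to 0.059 for Lef1 and -0.27 to 0.030 for Ctsd, a sign change in each, and none of these genes was called. Rps26, Prmt1 and Tsen34 lost an adjusted p under 0.05 when any library other than Eed iKO 3 was left out, and also without an intensity trend.

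With a replicate block, 331 genes passed the thresholds of the methods, 424 had an adjusted p under 0.05 (301 higher, 123 lower), 2856 an unadjusted p under 0.05 and 913 well expressed genes changed. The labels do not say that same-numbered libraries are pairs, and the main fit did not pair them. The deviations of same-numbered libraries correlated at 0.039, 0.0684 and 0.193, the last being the largest value of any control with any Eed iKO library. Control 2 and control 3 each correlated best with the Eed iKO library of the same number, and control 1 with Eed iKO 2 (0.0769). Whether the numbers mark a shared batch was not tested. With 3 libraries a group, the spread limits small differences, and for genes under 10 reads counting error adds to it.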

Other observations

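Keratins and secreted genes of the inner bulge and of neighbouring compartments differed in part. Of 9 tested genes of the inner bulge and companion layer, 3 were called higher and 1 lower, and the first count was 1 without Eed iKO 1 or Eed iKO 2. Crip1, a small LIM protein, had 8999.8, 4817 and 5627 in control 1, 2 and 3, and 11105, 11822 and 10216 in Eed iKO 1, 2 and 3 (log2 fold change 0.82, standard error 0.21, adjusted p = 0.13), with the groups apart. Krt6a, a keratin of the inner bulge, overlapped (0.19). In the suprabasal list, Dmkn, dermokine, had 14764, 10675 and 13277 in the control libraries against 18342, 19871 and 21764 (log2 fold change 0.64, standard error 0.15, adjusted p = 0.113), whereas Dsc1 and Flg, described above, were among the 3 of 14 called lower. That count was 1 without control 1, control 2 or Eed iKO 2 and 6 without Eed iKO 3, and the median log2 fold change of the list, -0.43, was 0.18 without control 3 and 0.09 without Eed iKO 2. In fatty acid synthesis Acsl3, which activates long fatty acids, had 4513, 3790.2 and 4251 in the control libraries against 5873, 7266 and 7296 (log2 fold change 0.70, standard error 0.15, adjusted p = 0.102). In the list of the isthmus and sebaceous gland, with 17 tested, Mgst1, a glutathione transferase, was called higher (0.73). That count was 2 without control 3 or Eed iKO 2. The member called lower was Ppargc1a, the coactivator of mitochondrial genes described above. Its call is not read as a change of these compartments.

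Clock genes were called higher in 0% and lower in 10.5% of those tested, retinoid genes in 5.56% and 11.1%, and imprinted genes in 4.17% and 8.33%. Over all genes tested these shares were 8.38% and 6.33%. Of 19 clock genes none was called higher with all libraries (1 without Eed iKO 1 and 2 without control 3 or Eed iKO 2), and the 2 called lower were Nr1d1, a repressor of the clock, at a log2 fold change of -0.60, and Npas2, an activator, at -0.58. The number of clock genes called lower was 4 without Eed iKO 3. In retinoid metabolism, 1 of 18 tested genes was called higher and 2 lower. The second count was 4 without control 1 and 1 without control 2, control 3, Eed iKO 1 or Eed iKO 2. Rxra, the partner of retinoic acid receptors, had 18610.1, 24277 and 23099 in the control libraries against 16021, 17101 and 14427. It was called lower (log2 fold change -0.47, standard error 0.15, adjusted p = 0.177). The imprinted gene Peg3 was called lower as well (-0.37), among 24 imprinted genes with 1 called higher and 2 lower, of which the first count was 0 without Eed iKO 1 or Eed iKO 2 and 2 without control 1 or control 3, and the second 0 without Eed iKO 1 or Eed iKO 2 and 1 without control 1, control 2 or control 3.

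Genes named after their values were seen are Lars2 and Ddx3y. Lars2, for the leucyl tRNA synthetase of mitochondria, had 346617, 371147 and 441751 in control 1, 2 and 3, and 859959.9, 1167092 and 858803 in Eed iKO 1, 2 and 3, with every library labelled Eed iKO above every control (log2 fold change 1.31, standard error 0.23, adjusted p = 0.083). Whether all of these reads came from the Lars2 mRNA was not tested, so this very large value is uncertain. Ddx3y, a Y-linked RNA helicase, had 1414, 971 and 875 in control 1, 2 and 3, and 1649, 1764 and 1761 in Eed iKO 1, 2 and 3 and so was read in all 6 libraries (log2 fold change 0.70, standard error 0.21, adjusted p = 0.167).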
